A study of Mus musculus with 6 samples.

Results

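The transcripts described are those of 9 genes that receive and transmit the Hedgehog signal: Gli1, Gli2, Gli3, Ptch1, Smo, Sufu, Hhip, Cdon and Boc. They were found as the probes that are not controls and whose accession stands for 1 of these symbols in the RefSeq gene table, and they are 9 of the 20145 gene symbols so identified on the array. They are read by 13 probes, 1 each for Gli1, Gli2, Gli3, Ptch1 and Boc and a pair each for Smo, Sufu, Hhip and Cdon. A probe was kept if at least 1 group had it well above background on all 3 arrays, which held for 12 of them and not for the fainter Hhip probe. All 9 genes were therefore tested.

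RNA came from cells of the embryonic cortex of C57BL/6N mice, labelled as neural progenitor cells, the dividing cells that give rise to cortical neurons and glia. Dams were injected intraperitoneally with saline (control) or with phenobarbital, a barbiturate drug that potentiates GABA-A receptors (dose 80 mg/kg, stock 8 mg/mL), in injections spaced by 6 h at embryonic days 10 to 11. Embryos of both groups were taken at embryonic day 12 (E12.5 in the sample labels), and the dissociated cortical cells were plated on coated plastic and lysed 4 h later, so both groups carry the same short time in culture. Each group has 3 one-colour Agilent arrays, hybridised with Cy3-labelled material made from 0.2 µg of RNA. The labels name no transgene or mutation, and leave unsaid whether the replicates are different litters or cultures. The p-values therefore reflect only how these samples varied, which may be technical variation.

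Sonic hedgehog and its relatives are secreted proteins that bind the membrane protein Ptch1, helped by the coreceptors Cdon and Boc, while Hhip binds the ligand at the cell surface and takes it out of action. Free of ligand, Ptch1 keeps the transmembrane protein Smo silent, and Sufu holds the Gli zinc finger factors in the cytoplasm. Ligand releases Smo, after which Gli2 acts mainly as an activator, and Gli1, Ptch1 and Hhip are themselves transcribed as targets. Gli3 is processed largely into a repressor, and in the forebrain it is known for its need in forming the dorsal cortex and its medial edge.

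The arrays were alike in detection, with 62.8% to 68.7% of spots well above background and none saturated outside the controls. Every value was scaled to the 75th percentile of its own array, which lay between 1116 and 1291 in control and between 1803 and 1862 with phenobarbital. Control replicate 2 stood somewhat apart, with Pearson correlations over probes of 0.988 and 0.983 with control replicates 1 and 3, which had a correlation of 0.996 with each other. Control replicate 1 and all 3 phenobarbital arrays shared 1 slide, and control replicates 2 and 3 each lay on a slide of their own. A value within the shared slide, or with the slide as a block, therefore sets the 3 phenobarbital arrays against control replicate 1 alone, with a spread taken from the phenobarbital arrays, and does not test the control group. With phenobarbital, 4234 of 25303 names (16.7%) passed an adjusted p below 0.05 in limma, 6.24% higher and 10.5% lower, and the median log2 fold change over all of them was -0.16.

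Of the 9 Hedgehog genes, 1 passed the test. Gli2 rose with phenobarbital, by 1.95-fold (95% interval 1.66 to 2.30), and the other 8 did not pass in either direction. This share may be read beside the 16.7% of all names that passed. The median log2 fold change of the 9 was 0.26, against -0.16 over all names, with 7 positive and 2 negative values. That median was not steady: it was 0.42 without control replicate 1, 0.12 without control replicate 3 and 0.16 without phenobarbital replicate 3. It was 0.09 with the mean of each gene's probes, 0.12 with array weights and -0.05 within the shared slide. With normexp it was 0.005, but this other background correction added 50 to every corrected signal, which bears most on faint probes. In 4 of the 9 genes the 3 arrays of one group lay all above or all below those of the other (Gli2 and Boc higher, Smo and Hhip lower), against 44.1% of all names. Those names were 2965 higher and 8203 lower, so such a fall was common. Relative to the median of all names, Smo was at -0.08 and Hhip at -0.15.

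**Figure D1:**
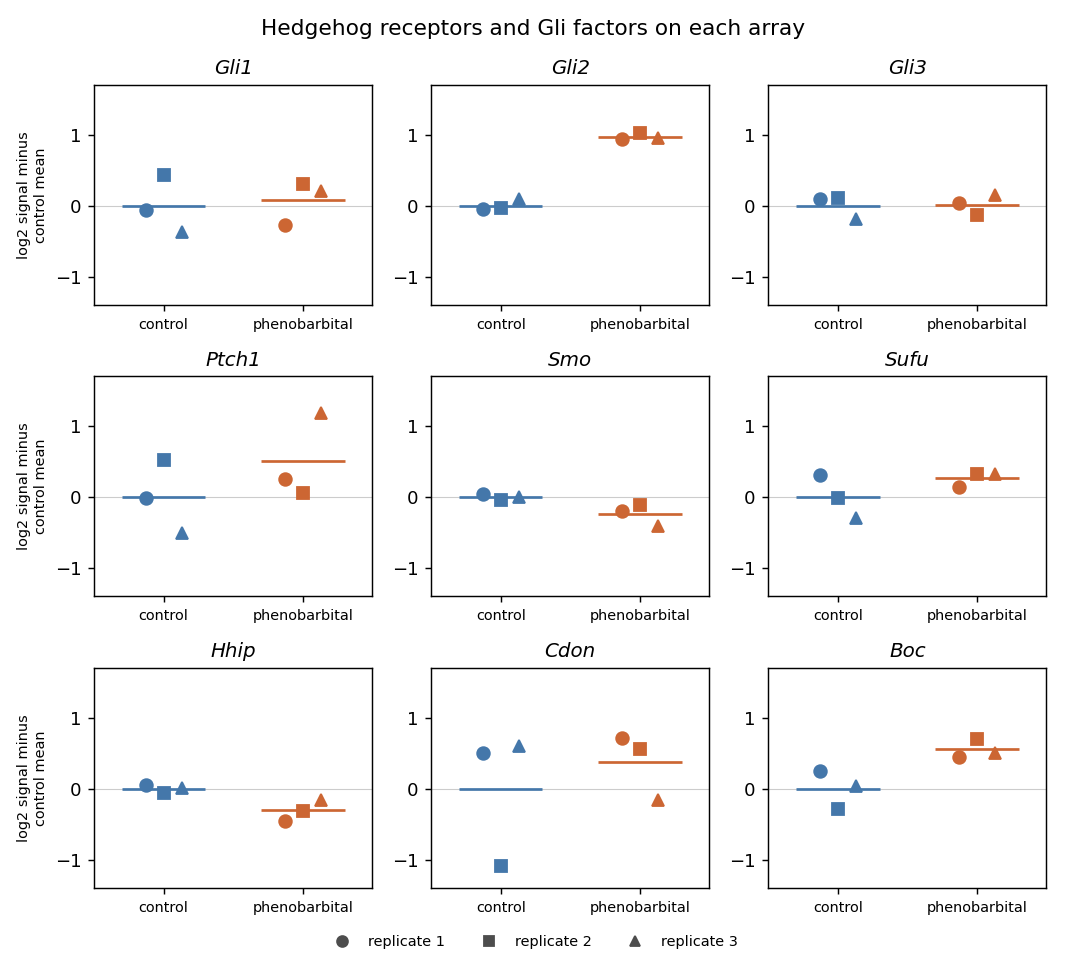
Log2 signal of each of the 9 genes on each of the 6 arrays, scaled to the array's 75th percentile and drawn as the difference from the control mean of the same gene. Circles, squares and triangles are replicates 1, 2 and 3, and the horizontal lines are group means (n = 3 each). The Gli2 groups are the farthest apart relative to their spread, while the Gli3 groups overlap fully and 1 control array of Cdon lies far below the others.

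The Gli factors came apart. On the log2 scale relative to the 75th percentile, Gli2 was at -2.31, -2.29 and -2.17 in control replicates 1 to 3 and at -1.33, -1.24 and -1.31 in phenobarbital replicates 1 to 3. Every phenobarbital array thus lay above every control array, by a distance many times the spread within either group (means -2.26 ± 0.08 and -1.29 ± 0.05, SD, n = 3). The log2 fold change was 0.97 ± 0.10 (SE; limma, adjusted p = 0.00437), or 1.13 relative to the median of all names. Of all names, 7.03% had a larger absolute log2 fold change and 0.905% a smaller p. Before scaling, the Gli2 signals were 259, 227 and 267 on the control arrays and 733, 783 and 726 on the phenobarbital arrays. Part of that gap is the brightness of the arrays, whose 75th percentile was 1116 to 1291 in control and 1803 to 1862 with phenobarbital.

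Gli3, the main repressor of the pathway, was at 3.91, 3.92 and 3.63 on the control arrays and at 3.85, 3.68 and 3.97 on the phenobarbital arrays. The groups overlapped fully, with control replicate 3 the lowest array and phenobarbital replicate 3 the highest. Its log2 fold change was 0.01 ± 0.13 (limma, adjusted p = 0.955), with a 95% interval from -0.31 to 0.33, so a change of the size seen in Gli2 lies outside the interval.

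Gli1, the activator that is transcribed in response to the signal and is often read as its gauge, was at -1.30, -0.82 and -1.61 in control and at -1.52, -0.94 and -1.04 in phenobarbital replicates 1 to 3. The highest and the lowest of the 6 values were both control arrays. The log2 fold change was 0.08 ± 0.25 (limma, adjusted p = 0.846), with an interval from -0.51 to 0.67. Its value was -0.10 without control replicate 3 and -0.03 without phenobarbital replicate 2.

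The start of the Gli2 and Gli3 genes is shown because one of this pair rose and the other did not. The RefSeq promoter table (build GRCm38.p6, whereas the array annotation uses mm9) held 7 of the 9 genes, without Gli1 and Boc. The 250 bases before the annotated start are at chr1:119053620-119053869 on the minus strand for Gli2 and at chr13:15463473-15463722 on the plus strand for Gli3. They read 5′ to 3′ along the gene, with capitals marking the GC box, GGGCGG or its reverse complement CCGCCC.
Gli2: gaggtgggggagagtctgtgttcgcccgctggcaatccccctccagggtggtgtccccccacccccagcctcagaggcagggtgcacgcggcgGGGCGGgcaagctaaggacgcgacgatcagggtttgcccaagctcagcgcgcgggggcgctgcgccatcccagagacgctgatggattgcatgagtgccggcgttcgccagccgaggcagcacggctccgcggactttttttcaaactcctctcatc
Gli3: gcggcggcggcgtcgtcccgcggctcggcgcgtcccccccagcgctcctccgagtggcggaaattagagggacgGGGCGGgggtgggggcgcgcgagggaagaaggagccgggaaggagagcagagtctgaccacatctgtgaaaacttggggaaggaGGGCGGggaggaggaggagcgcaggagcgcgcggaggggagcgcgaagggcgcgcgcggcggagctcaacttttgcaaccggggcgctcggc
Gli2 has 1 GC box, beginning 157 bases before the start, and Gli3 has 2, beginning 176 and 92 bases before it. Over windows of 300 bases, which add the 50 bases after the start, the box was found on either strand in 5 of the 7 genes (Gli2, Gli3, Ptch1, Sufu and Hhip) and in 35.7% of all 32851 promoter windows. The consensus described for the Gli zinc fingers, GACCACCCA or its reverse complement TGGGTGGTC, was in none of the 7 windows and in 0.253% of all windows. The GC content was 67.3% for Gli2 and 71.0% for Gli3, against a median of 52.7%. So the window of the gene that rose and that of the gene that did not both carry the box, and neither carries the exact consensus. These are matches of letters only.

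Among the receptors, none passed the test. Ptch1, which binds the ligand and is a target of the pathway, was at -4.71, -4.16 and -5.20 in control and at -4.44, -4.63 and -3.50 in phenobarbital replicates 1 to 3. The groups overlapped, and phenobarbital replicate 3 lay far above the other 5 arrays. The log2 fold change of 0.50 ± 0.37 (limma, adjusted p = 0.372) became 0.16 without that array and 0.005 with normexp. Normexp added 50 to every corrected signal, which draws faint signals together before the scaling. The Ptch1 signals ranged only from 32.6 to 159, so the normexp value does not by itself show that the change was unstable.

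Boc, a coreceptor of the immunoglobulin family, was at 1.88, 1.36 and 1.68 on the control arrays and at 2.09, 2.34 and 2.14 on the phenobarbital arrays. All 3 phenobarbital arrays lay above all 3 controls, the nearest pair being control replicate 1 and phenobarbital replicate 1. The log2 fold change was 0.55 ± 0.16, or 1.47-fold (95% interval 1.12 to 1.92), and missed the threshold (limma, adjusted p = 0.0628). It passed with normexp, quantile normalization, the percentile taken over probes above background, a trended variance prior and array weights, with adjusted p between 0.0321 and 0.0440 (limma). Against control replicate 1 alone, within the shared slide, the difference was 0.31.

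Cdon, the relative of Boc with the same role, has a pair of probes. The brighter was at 4.14, 2.55 and 4.25 in control and at 4.36, 4.20 and 3.49 in phenobarbital replicates 1 to 3, and the dimmer was at -0.08, -1.25 and -0.15 and at 0.00, -0.28 and -0.73. Both probes were lowest on control replicate 2, and both had their lowest phenobarbital value on replicate 3. The log2 fold changes were 0.37 ± 0.49 (limma, adjusted p = 0.621) and 0.16 ± 0.36 (limma over every probe, adjusted p = 0.786). Without control replicate 2 they were -0.18 and -0.22.

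Smo, the transmembrane protein that Ptch1 holds silent, gave lower values with phenobarbital on both of its probes, and neither passed. The brighter was at 4.63, 4.55 and 4.60 on the control arrays and at 4.39, 4.48 and 4.18 on the phenobarbital arrays, a log2 fold change of -0.24 ± 0.11 (limma, adjusted p = 0.182). The dimmer was at 2.02, 2.89 and 1.64 and at 1.32, 0.93 and 1.29, a log2 fold change of -1.0 ± 0.32 (limma over every probe, adjusted p = 0.0790, where 15.7% of probes passed). On both probes all phenobarbital arrays lay below all controls. The fold changes of the pair differed by 0.76 (exact permutation test on the difference between probes, two-sided p = 0.2). The smallest p that 3 arrays in each group can give is 0.1, so this test cannot show whether the probes differ. Without control replicate 2, the highest array of the dimmer probe, that probe was at -0.65 (limma, adjusted p = 0.0601) and the gap between the probes was 0.38. The dimmer probe passed with normexp (-0.96, limma adjusted p = 0.0498) and with array weights (-0.81, adjusted p = 0.0226), and the brighter probe passed under none of the alternatives.

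Of the inhibitors, Sufu binds the Gli proteins inside the cell. Its brighter probe was at -3.42, -3.75 and -4.03 in control and at -3.59, -3.41 and -3.40 in phenobarbital replicates 1 to 3, and its dimmer at -3.70, -3.61 and -3.95 and at -3.73, -3.83 and -3.94. The groups overlapped on both. The log2 fold changes were 0.26 ± 0.17 (limma, adjusted p = 0.312) and -0.08 ± 0.13 (limma over every probe, adjusted p = 0.705), which differ in sign. Here too the test of the difference between probes (exact permutation, two-sided p = 0.2) could not have passed. The first was -0.11 with normexp, whose added constant bears on this faint probe as on Ptch1, and -0.05 within the shared slide.

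Hhip, the decoy that binds ligand at the cell surface, was at -1.69, -1.80 and -1.73 on the control arrays and at -2.19, -2.05 and -1.89 on the phenobarbital arrays. All phenobarbital arrays lay below all controls. The log2 fold change of -0.31 ± 0.11 did not pass (limma, adjusted p = 0.111), although it did with normexp (-0.35, limma adjusted p = 0.0417) and with array weights (-0.39, limma adjusted p = 0.0145). The fainter probe was well above background on no control array and on 1 phenobarbital array, so it gives no fold and no direction.

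**Figure D2:**
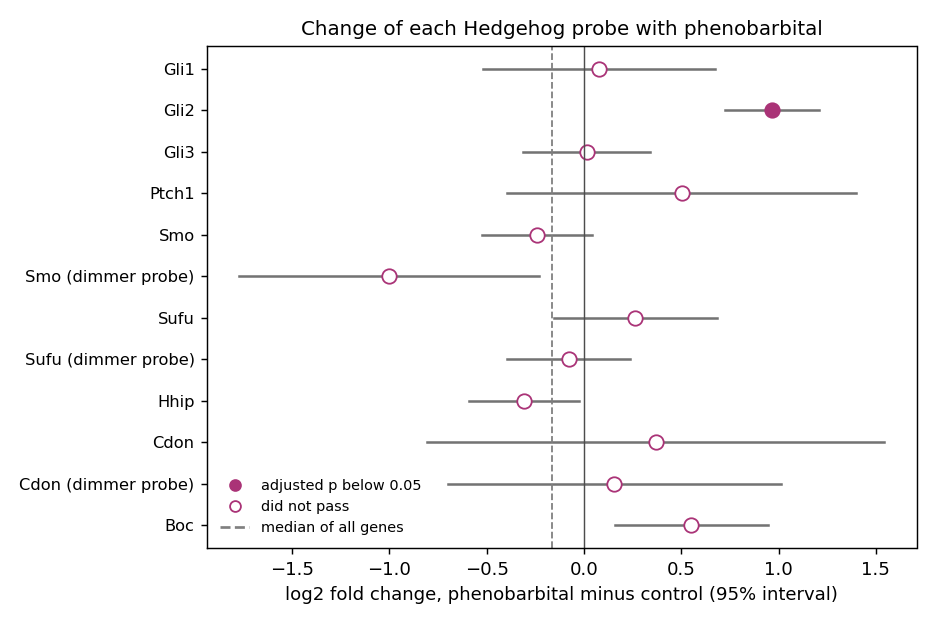
Log2 fold change (phenobarbital minus control) of the 12 Hedgehog probes that passed the filter on dim signals, with 95% intervals from limma (n = 3 arrays per group). The filled point, Gli2, is the probe with an adjusted p below 0.05, and the dashed line is the median of all names, -0.16.

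Gli2 kept its direction under all 21 other settings tried, with log2 fold changes from 0.83 to 1.06. It missed the threshold with the replicate number as a block (limma, adjusted p = 0.0547), and the slide as a block does not test the control group. Gli2 has 1 probe, so its fold change could not move where only the filter, the choice of probe or the variance prior changed. With the replicate number as a block it could not move either. Gli2 lay between 0.94 and 1.01 when each array was left out in turn. Against control replicate 1 alone, within the shared slide, it was 1.02. Of the other members, Boc and Ptch1 stayed positive and Smo and Hhip negative in all 21 settings, some of which likewise could not move their values. Gli1, Gli3, Sufu and Cdon changed sign in at least 1. The median of all names was negative in all 21 settings too, between -0.21 and -0.06.

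**Figure D3:**
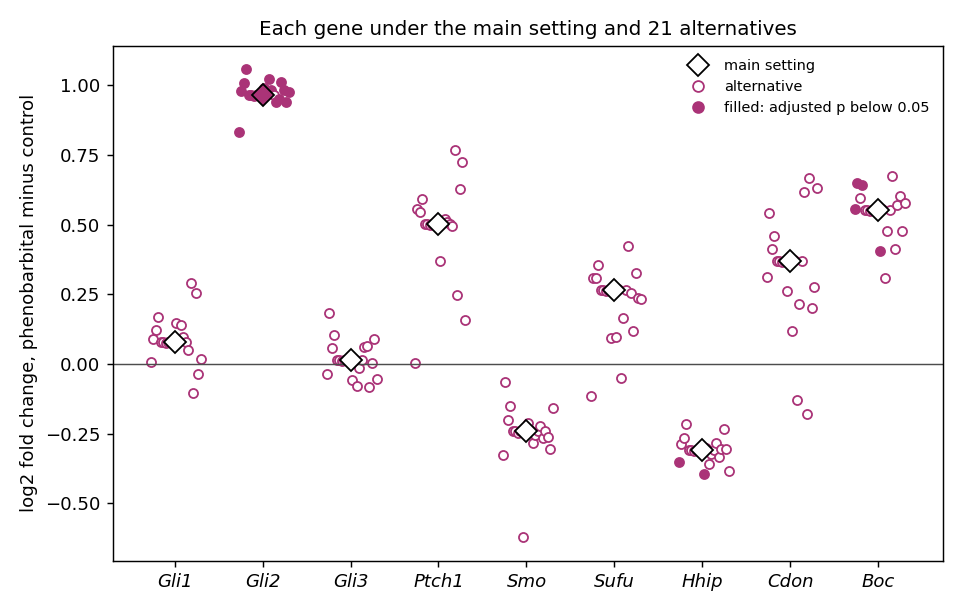
Log2 fold change of each gene under the main setting (diamond) and 21 alternatives (circles) that differ in background correction, scaling, filter, choice of probe, variance model, blocking or the arrays included. Filled symbols have an adjusted p below 0.05. Gli2 lies between 0.83 and 1.06, above every value of the other genes, Boc and Hhip pass under some settings, and Gli3 straddles 0.

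The genes whose pattern over the 6 arrays lay closest to that of Gli2, by the root mean square difference of log2 values centred on their mean, were Gm3219 (0.056), Gfus (0.063), Ptcd2 (0.064), Lix1l (0.067) and Gpx3 (0.072). Their log2 fold changes lay between 0.89 and 0.99. Closest to Gli3 were Ero1b (0.025), Cep55 (0.036), Rock2 (0.042), Crip3 (0.049) and Fmnl2 (0.054), with log2 fold changes between -0.07 and 0.04. None of these 10 genes is a Hedgehog gene in the lists used here, and the likeness is over 6 arrays only. Fold changes near those of Gli2 and Gli3 follow from the choice of these genes, which used the same values.

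Counts in the lists from here on may be read beside all names, of which 6.24% rose and 10.5% fell. The ligands and the proteins that release them gave no call. Of 9 listed genes, 8 were tested and none passed, with a median log2 fold change of 0.00. Sonic hedgehog itself, Shh, was not well above background on all arrays of either group and was not tested. The brightest tested were Scube1, a secreted carrier that helps free the ligand (0.40 ± 0.15, limma adjusted p = 0.106), and Disp1, the transporter that releases it (0.27 ± 0.18, limma adjusted p = 0.322, and 0.08 without phenobarbital replicate 2). Scube1 was higher on every phenobarbital array than on any control array and passed without control replicate 2 (0.52, limma adjusted p = 0.0450).

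None of the 7 other receptors and coreceptors passed either, with a median of -0.11. Gas1, a membrane-anchored coreceptor that works beside Cdon and Boc, was at -0.11 ± 0.18 (limma, adjusted p = 0.705) and at 0.06 without control replicate 2. Gpc3, a glypican that competes for ligand, was at -0.58 ± 0.26 (limma, adjusted p = 0.169), and at -0.27 without control replicate 2, its highest array.

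Between Smo and the Gli proteins lie the primary cilium, its transport machinery and the kinases that prepare Gli proteins for cleavage. Of 28 tested genes of this group, 1 rose and none fell, and the median was -0.11. The count that fell was 2 with normexp, 3 with a trended variance prior, 8 with array weights and 1 without control replicate 2, and the count that rose was 3 with the percentile over probes above background and 4 with array weights. The one that rose in the main setting was Ift172, a subunit of the complex that carries cargo toward the ciliary tip (0.81 ± 0.11, limma adjusted p = 0.0107). Its groups did not overlap. It missed the threshold without phenobarbital replicate 2 (limma, adjusted p = 0.0526) and with the replicate number as a block (limma, adjusted p = 0.0758). Against control replicate 1 alone, within the shared slide, it was 0.77.

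Ventral genes that Hedgehog induces in the neural tube were mostly faint: 6 of 13 (Nkx2-1, Nkx6-2, Olig1, Foxf1, Gsx2 and Dlx1) were not tested. The median of the 7 tested was -0.28, and 1 passed, upward, beside the 16.7% of all names that passed in either direction. This was Foxa2, a floor plate factor, which was well above background on no control array and on all 3 phenobarbital arrays, so that it entered the test only through the group where it is high. Against the lowest signal well above background on each control array, it was at least 1.47-fold higher with phenobarbital, a bound that has no test. The fit's adjusted p of 0.0102 (limma) belongs to the measured means of -6.67 and -5.14, the first of which lies at background. With normexp, whose added constant bears most on such faint signals, Foxa2 did not pass (0.14, limma adjusted p = 0.412).

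Among 9 proliferation genes described as Hedgehog targets, 2 rose and none fell, beside 6.24% of all names higher and 10.5% lower. Their median was 0.06. Ccnd1, the cyclin that drives entry into the cell cycle, was at 3.42, 3.06 and 3.31 on the control arrays and at 4.44, 4.73 and 4.58 on the phenobarbital arrays. The groups were far apart, with a log2 fold change of 1.32 ± 0.14 (limma, adjusted p = 0.00501). Over the 21 other settings the value of Ccnd1 ranged from 1.16 to 1.51, and it missed the threshold in 1 of them. Sfrp1, a secreted protein that binds Wnt ligands, rose by 0.82 ± 0.13 on the log2 scale (limma, adjusted p = 0.0159). Sfrp1 missed the threshold without control replicate 1, phenobarbital replicate 1 or phenobarbital replicate 2 (adjusted p between 0.0616 and 0.0687) and with the slide as a block (0.0897).

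The dorsal midline and medial cortex genes, many of which depend on Gli3, had a median of 0.59. Of 18 tested, 5 rose, 13 did not pass and none fell. Ttr, the transthyretin of the choroid plexus, rose by 4.95 ± 1.04 on the log2 scale (limma, adjusted p = 0.0292). Its control arrays were widely spread, at -2.35, -3.46 and 0.73, against 3.98, 2.66 and 3.14 on the phenobarbital arrays. With 1 array left out the Ttr value was 4.07 to 6.17. Bmp7, a signal of the dorsal midline, rose by 0.53 ± 0.12 (limma, adjusted p = 0.0325). The Wnt target Axin2 rose by 0.57 ± 0.13 (limma, adjusted p = 0.0349). The others that rose were Emx2, a cortical patterning factor, and Wnt5a, a Wnt ligand. The count of genes that rose moved with the setting and with single arrays. It was 0 with no filter on dim probes (limma, adjusted p between 0.0650 and 0.0985 for the same 5 genes), 11 with array weights and 3 with the slide as a random block. It was 9 without control replicate 2, 1 without control replicate 3, and 0 without control replicate 1 or without any 1 of the phenobarbital replicates. With the slide as a block it was 1.

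The Zic and Glis proteins share the zinc finger type of the Gli factors. Of 8 tested genes, 2 rose and none fell, and the median was 0.38. Zic4 rose by 1.54 ± 0.21 on the log2 scale (limma, adjusted p = 0.0102) and Zic1 by 0.48 ± 0.09 (adjusted p = 0.0257). Both are factors of the dorsal neural tube and medial forebrain. The count was 4 without control replicate 2, 1 without any 1 of the other 5 arrays and 0 with the slide as a block, where Zic4 kept its size (1.55, adjusted p = 0.0537).

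**Figure D4:**
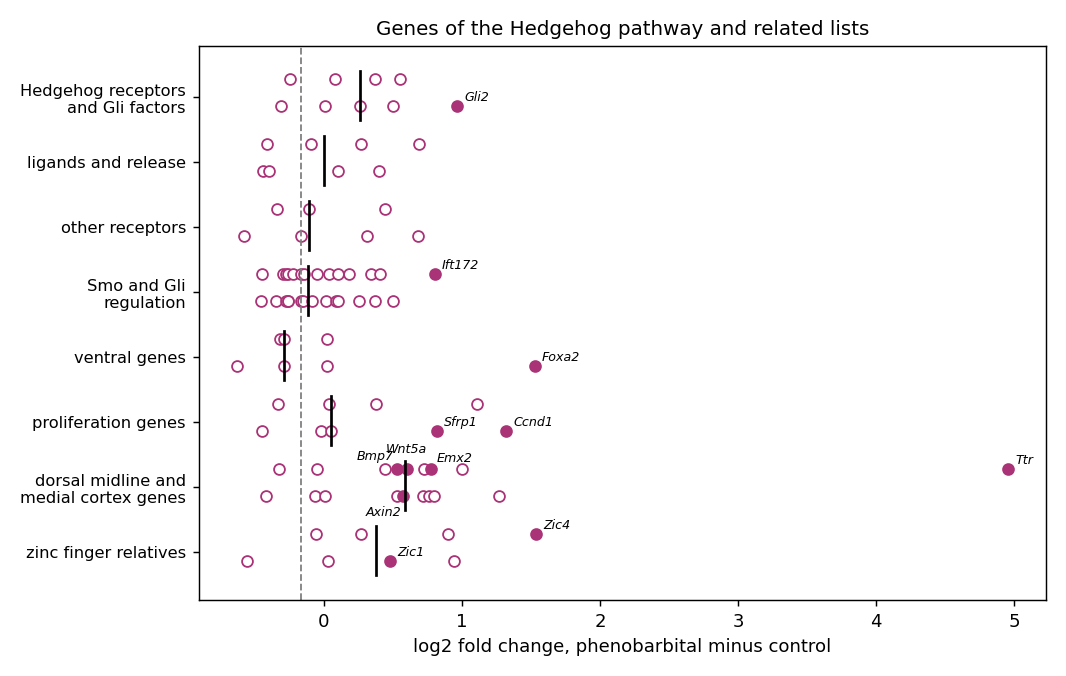
Log2 fold change (phenobarbital minus control) of every tested gene in the 9 Hedgehog genes and 7 related lists. Filled points passed an adjusted p below 0.05 in limma and are named, vertical bars are list medians and the dashed line is the median of all names, -0.16. Every point that passed is positive, and the lists of ligands and of other receptors have none.

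Because these are bulk samples, fewer cells of a type and less RNA per cell cannot be told apart, and markers of other cell types moved with the groups. The counts of markers below may be read beside the 6.24% of all names that rose and the 10.5% that fell. All 12 markers of cortical progenitors, the labelled cell type, were bright enough to test. Of them, 1 rose (Emx2), 1 fell (Vim) and 10 did not pass, and their summed level was 523 to 582 times the array's 75th percentile in control and 421 to 499 with phenobarbital. Neuronal markers summed to 239 to 268 in control and 150 to 183 with phenobarbital, and 5 of 8 fell. Markers of mural cells and meninges fell in 6 of 10 (55.5 to 60.2 against 31.3 to 37.9), endothelial markers in 3 of 8 (82.4 to 87.9 against 49.5 to 58.6) and red cell markers in 5 of 8 (1060 to 1729 against 698 to 787). The endothelial markers Pecam1 and Tek had positive log2 fold changes (both 0.71) and did not pass. Pecam1 was higher on every phenobarbital array than on any control array. Choroid plexus markers rose in 5 of 9, and the sum of all 9 went from 3.21 to 5.60 in control up to 12.6 to 24.3 with phenobarbital. The other 4 (Kcnj13, Aqp1, Enpp2 and Prlr) did not pass, with log2 fold changes between -0.35 and -0.04. Of the 5 that rose, Kcne2 was well above background on none of the control arrays. Cortical hem markers rose in 1 of 6 tested (10.5 to 25.8 against 20.7 to 31.9), while microglial markers rose in 1 of 5 and fell in 2 (7.37 to 9.67 against 8.10 to 10.4). Ventral telencephalon markers, 6 of 9 tested, had no call (6.74 to 10.66 against 4.68 to 6.88), and of 8 hindbrain and spinal cord markers only En2 was bright enough to test. The part of these shifts in the rise of Gli2, or in the values of the other Hedgehog genes, was not tested.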

How the data were processed

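RNA of 3 control and 3 phenobarbital samples was measured on one-colour arrays of 62976 spots (59305 not controls, 55681 probes). Per the file headers, the authors' scans were quantified in Agilent's Feature Extraction software, version 10.7.3.1 (given as 10.7 by the submitters' processing notes), yielding a background-subtracted, detrended intensity per spot with no scaling between arrays. The authors' deposited value table holds log2 values, centred per probe on a constant that stays unknown. Apart from a shift common to all probes of an array, its differences between arrays matched those of the scanner values, which settles its scale and direction. Its column medians were 0.08, 0.10 and 0.09 in control and -0.02, -0.09 and -0.08 in phenobarbital replicates 1 to 3.

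The values used were log2 of the intensity minus each array's 75th percentile, with outlier spots (98 to 198 per array) left out. Names come from the RefSeq gene table (GRCm38.p6), which held 26582 probes' accessions, and other probes kept the file's name. The filter on dim probes kept 34672 that 1 group or both had well above background on all 3 arrays, with 2 or more values per group. The brightest probe of each gene was tested with limma 3.58.1 in R 4.3.3 (25303 names, Benjamini-Hochberg adjustment, two-sided, threshold 0.05), and every probe in a second fit. The fit with 1 probe per gene was tested on simulated data, and the fit over every probe was not. Precision is limited by the number of arrays.

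The members, the lists and the rules were chosen with earlier results of these data known. Named were all members, the 3 genes or fewer of each list with the smallest p among those that passed (where none did, the 2 brightest), further ones that fix a count of 5 or fewer, and the 5 genes nearest in pattern to the member with the smallest p and to that with the smallest absolute fold change. The alternatives changed background, scaling, filter, outliers, probe choice, variance model, weights, value source, blocks and arrays. Normexp used median spot signals in place of the planned means, and added 50 to every corrected signal before the log and the scaling.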

Additional observations from a re-analysis of the deposited data

How the results depend on the processing

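The main count of 4234 names past the threshold was 2470 when scaled to the median, 2716 with the percentile over probes above background, 1486 with no filter on dim probes, 9364 with array weights and 771 with the slide as a block. Leaving out 1 array gave 877 (control replicate 1), 4462 (control replicate 2), 1844 (control replicate 3), 1151, 885 and 1239 (phenobarbital replicates 1 to 3). The share of calls that were higher was 37.3% in the main setting, 24.3% with normexp, 54.5% with quantile normalization, 58.4% scaled to the median and 59.4% with the percentile over probes above background. Quantile normalization moved the median of all names most among the scalings, from -0.16 to -0.06. Of the 9 Hedgehog genes, 3 passed with normexp or array weights, 2 with quantile normalization, the percentile over probes above background or a trended variance prior, and 1 when any array was left out. With array weights, genes also fell among the ligands (1), the other receptors (1), the ventral genes (1), the proliferation genes (2) and the dorsal midline genes (1).

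With the replicate block, 0 of the 9 and 295 of all names passed, and Gli2 was at 0.97 (limma, adjusted p = 0.0547). Same-numbered arrays had correlations of 0.08, -0.16 and -0.35 between their deviations from the group means. The labels do not say whether a shared number marks a pair. Deviations of so few arrays, which are bound to each other by their group mean, cannot decide it.

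Signs turned as follows, on genes and probes that passed in no such setting; the causes were not tested. Gli1 was at -0.10 without control replicate 3 and -0.035 without phenobarbital replicate 2 (range with 1 array left out, -0.10 to 0.29). Gli3 was at -0.037 with normexp, -0.057 with array weights, -0.079 with the slide as a block, -0.016 with it as a random block and -0.083 to 0.089 with 1 array left out, below 0 without control replicate 3 or phenobarbital replicate 3. Sufu was at -0.11 with normexp and -0.050 with the slide as a block, and its dimmer probe at 0.012 with the percentile over probes above background. Cdon was at -0.13 with the slide as a block and -0.18 to 0.67 with 1 array left out, below 0 without control replicate 2. Its dimmer probe was at -0.027 with array weights, -0.26 with the slide as a block and -0.22 to 0.36 with 1 array left out, below 0 without control replicate 2 or phenobarbital replicate 1. Gas1 was at 0.067 with quantile normalization and -0.24 to 0.060 with 1 array left out, above 0 without control replicate 2. The fainter Hhip probe and Foxa2 in control were not well above background, which limits what can be said of them.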
